A study of Mus musculus with 20 samples.

Results

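The genes described here are Myh3, Myh8, Actc1, Tnnt2 and Myl4, the embryonic and neonatal sarcomere genes that are switched on again in regenerating muscle fibres. They were chosen by name, their symbols were matched to the Ensembl identifiers of the count matrix, and they are 5 of its 55401 genes (30096 of these were detected). Gene expression was measured by bulk RNA sequencing of the gastrocnemius, the large calf muscle, in 20 C57BL/6 mice aged 24 months. The HK group was 10 mice given Haenkenium (HK), an extract of the sage Salvia haenkei, in the water they drank, at 0.5 mg/kg/day from the age of 20 months, that is, for 4 months. The untreated group was 10 mice of the same strain and age that drank water alone. Each group held 5 males and 5 females. The labels put replicates 1 and 2 of each sex and group into experimental batch 1 (8 mice) and replicates 3, 4 and 5 into batch 2 (12 mice), which the study's methods describe as separate sequencing experiments. The mice came from a single inbred strain, and no group carried an introduced allele. HK is a mixture of plant compounds, so no difference between groups can be assigned to a single molecule in it. The young mice of the study are not analysed here, so no level below is a change with age.

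The sarcomere is the contractile unit of muscle, built of thick filaments of myosin, thin filaments of actin, and a calcium switch of troponin and tropomyosin on the thin filament. Many of its proteins come in isoforms from separate genes, and a fibre uses embryonic and neonatal isoforms before birth and adult fast or slow isoforms later. When an adult fibre is injured, satellite cells, the stem cells of muscle, fuse into new fibres that pass through the embryonic and neonatal isoforms again, which is why these genes are read as marks of regenerating fibres. Myh3 encodes the embryonic myosin heavy chain and Myh8 the neonatal, or perinatal, heavy chain. Myl4 encodes the embryonic and atrial essential light chain, which binds the neck of the myosin head. Actc1 encodes cardiac alpha-actin, the main sarcomeric actin of heart and of early skeletal muscle, and Tnnt2 encodes cardiac troponin T, which ties the troponin complex to tropomyosin and is also present in early skeletal muscle.

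On the mouse genome build GRCm38, Myh3 (ENSMUSG00000020908) lies on chromosome 11 from 67078300 to 67102291 on the plus strand. Myh8 (ENSMUSG00000055775) follows it on the same strand of chromosome 11, from 67277124 to 67308634, in the cluster of skeletal heavy chain genes. Myl4 (ENSMUSG00000061086) is also on chromosome 11, far from that cluster, from 104550663 to 104595753 on the plus strand, and genes on the opposite strand overlap it. Actc1 (ENSMUSG00000068614) lies on chromosome 2 from 114047282 to 114053548 on the minus strand and overlaps A530058N18Rik on the plus strand. Tnnt2 (ENSMUSG00000026414) lies on chromosome 1 from 135836354 to 135852260 on the plus strand. Whether counting used strand is not stated in the sources used here, and reads of Actc1 and Myl4 and of the genes opposite them cannot be told apart. Stretches of 75 bases, the length of the sequencing run, were compared with all other transcripts. Of those of Myh8, 12.9% occurred identically in Myh1, Myh2, Myh3, Myh4 or Myh13, and of those of Myh3, 1.86% occurred in Myh1, Myh2, Myh8 or Myh13. No stretch of Actc1, Tnnt2 or Myl4 was shared. How reads that fit several genes were counted is likewise not stated there, so the levels of Myh8 and Myh3 are uncertain. The shared percentages do not bound that uncertainty, because genes that share stretches with Myh8 were far more abundant. Myh4, Myh1 and Myh2 had medians of 9915, 755 and 451 CPM per kb, against 1.95 for Myh8.

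The promoters of Myh3, Myh8, Actc1 and Tnnt2 are shown because the levels of 3 of these genes moved together from mouse to mouse and that of Actc1 did not, as given further on. Each runs from 250 bases before to 50 bases after a transcription start in RefSeq (GRCm38.p6), 5′ to 3′ along the gene. The windows are chr11:67078050-67078349 (plus strand) for Myh3, chr11:67276874-67277173 (plus strand) for Myh8, chr2:114052826-114053125 (minus strand) for Actc1 and chr1:135836084-135836383 (plus strand) for the first of the Tnnt2 promoters in that table. Capitals mark matches to the TATA box (TATAAA), the MCAT element (CATTCC), and the MEF2 and CArG motifs, which bind the muscle factors MEF2 and SRF, searched on both strands.
Myh3: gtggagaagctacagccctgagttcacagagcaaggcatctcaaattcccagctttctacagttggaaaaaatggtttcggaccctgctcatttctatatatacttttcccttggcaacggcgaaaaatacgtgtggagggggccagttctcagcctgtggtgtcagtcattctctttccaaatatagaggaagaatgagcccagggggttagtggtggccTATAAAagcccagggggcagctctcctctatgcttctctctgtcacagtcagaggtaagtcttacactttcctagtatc
Myh8: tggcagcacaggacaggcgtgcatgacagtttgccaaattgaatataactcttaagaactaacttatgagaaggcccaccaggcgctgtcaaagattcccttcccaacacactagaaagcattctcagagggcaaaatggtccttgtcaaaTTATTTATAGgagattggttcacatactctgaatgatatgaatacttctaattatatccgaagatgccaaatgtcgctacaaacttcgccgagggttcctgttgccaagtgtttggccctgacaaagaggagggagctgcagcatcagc
Actc1: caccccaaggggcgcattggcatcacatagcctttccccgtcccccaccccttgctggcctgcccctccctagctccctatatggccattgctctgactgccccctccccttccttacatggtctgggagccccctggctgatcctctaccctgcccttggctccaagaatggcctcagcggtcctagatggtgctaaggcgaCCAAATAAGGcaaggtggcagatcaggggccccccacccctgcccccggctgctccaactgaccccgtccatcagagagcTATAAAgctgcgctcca
Tnnt2: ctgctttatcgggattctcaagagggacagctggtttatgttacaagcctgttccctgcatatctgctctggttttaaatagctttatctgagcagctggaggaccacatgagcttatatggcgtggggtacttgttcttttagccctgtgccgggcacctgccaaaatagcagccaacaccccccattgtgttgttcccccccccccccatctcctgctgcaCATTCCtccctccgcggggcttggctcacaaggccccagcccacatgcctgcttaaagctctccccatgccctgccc

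The Myh3 window held a TATA box from 29 to 24 bases before the start, and a TATA box stood in 13.6% of 32851 mouse promoters of this length. The window of Myh8 held a MEF2 match from 99 to 90 bases before the start, a motif found in 3.19% of promoters, and a TATA match on the other strand lay within it. The Actc1 window held a CArG match from 47 to 38 bases before the RefSeq start, a motif found in 1.63% of promoters, and a TATA box from 33 to 38 bases after that start. The first Tnnt2 promoter held an MCAT element from 27 to 22 bases before the start, against 14.7% of all promoters. E-boxes (CANNTG), the sites of the myogenic regulators, were present in 72.3% of promoters and are not in capitals. There was 1 E-box in the Myh3 window, 2 in Myh8, 1 in Actc1, 5 in the first Tnnt2 promoter, and none of these motifs in that of Myl4. These matches describe the letters of the windows and not factor binding.

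Among the 20 libraries, total counts ran from 13900180 to 30469644. The muscle marker genes were abundant in every mouse, with 9 of 9 measured and a summed level of 137387 to 185838 CPM (counts scaled to a common library size with trimmed mean of M values factors). Untreated males 3 and 5, both of batch 2, stood apart in the genes described here. Untreated male 5 had the highest level and untreated male 3 the second highest of all 20 mice for Myh3, Myh8, Tnnt2 and Myl4, and neither did for Actc1. The comparisons between groups and batches, the spread, the shares and the correlations among the 5 are therefore given with and without these mice, an exclusion chosen after their values were seen. Without these mice the comparison of the sexes is given for Myh3 only, and the interactions for some of the genes only. The same mice were high for other markers. Untreated male 3 had the highest summed level of fibroblast markers of all 20 mice (2116 CPM), and untreated male 5 the highest of macrophage markers (378 CPM). Their part in the results below was not tested.

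Per kilobase of the longest coding transcript, Actc1 was the most abundant of the 5, with a median of 57.3 CPM per kb over 20 mice. It was followed by Myl4 at 14.8, Tnnt2 at 4.07, Myh3 at 2.70 and Myh8 at 1.95 CPM per kb. Actc1 was above Myl4, and Myl4 above Tnnt2, in 20 of 20 mice. Tnnt2 was above Myh3 in 18 of 20 mice and Myh3 above Myh8 in 15 of 20, so the last neighbours in this order were not apart in every mouse. The order also depends on the length used. That of Tnnt2 is 1200 bases for this transcript and 7752 for the union of its annotated exons, against 6031 and 6057 for Myh3. Before division by length the medians were 4.89 CPM for Tnnt2 and 16.3 CPM for Myh3, so per length of the union Tnnt2 has the lower median.

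Myh3, the embryonic heavy chain, had the widest range of the 5. In untreated males 1 to 5 its level was 11.9, 6.80, 131.6, 27.9 and 237.1 CPM, and in untreated females 1 to 5 it was 24.3, 16.5, 41.5, 18.7 and 15.996 CPM. In HK males 1 to 5 it was 8.19, 6.49, 19.1, 10.2 and 28.3 CPM, and in HK females 1 to 5 it was 11.7, 9.85, 13.7, 13.9 and 33.1 CPM. Untreated males 3 and 5 were above every other mouse, the groups overlapped, and 8 of 10 HK mice lay below the untreated median of 21.5 CPM. The highest level was 36.6 times the lowest, and raw counts of Myh3 ran from 88 to 3719 per mouse.

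Myh8, the neonatal heavy chain, was high in the same males and in another of their batch. In untreated males 1 to 5 its level was 12.2, 10.3, 36.8, 31.7 and 49.1 CPM, and in untreated females 1 to 5 it was 12.2, 8.28, 21.7, 12.5 and 10.1 CPM. The 10 HK mice lay between 9.26 and 15.5 CPM with a median of 11.3, close to the untreated median of 12.4. In 4 untreated mice, males 3, 4 and 5 and female 3, Myh8 was above the highest HK mouse.

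Tnnt2, cardiac troponin T, ran from 3.89 to 52.2 CPM in untreated mice (median 4.99 CPM) and from 3.39 to 13.2 CPM in HK mice (median 4.89 CPM). The medians were thus nearly equal, and untreated males 3 (30.7 CPM) and 5 (52.2 CPM) were the only mice above the highest HK mouse. Myl4, the embryonic light chain, ran from 9.19 to 56.3 CPM in untreated mice (median 16.4 CPM) and from 6.71 to 23.4 CPM in HK mice (median 12.9 CPM). Above the highest HK mouse were untreated males 3, 4 and 5, at 41.5, 28.8 and 56.3 CPM, and 8 of 10 HK mice were below the untreated median.

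Actc1, cardiac alpha-actin, was spread widely in both groups, and its extremes were other mice. It ran from 33.5 to 283.9 CPM in untreated mice (median 89.0 CPM) and from 24.4 to 215.1 CPM in HK mice (median 80.6 CPM). The highest levels were in untreated female 4 (283.9 CPM) and HK female 5 (215.1 CPM), and untreated female 3, which came after untreated males 5 and 3 for Myh3, had one of the lowest levels of Actc1 at 33.5 CPM.

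**Figure D1:**
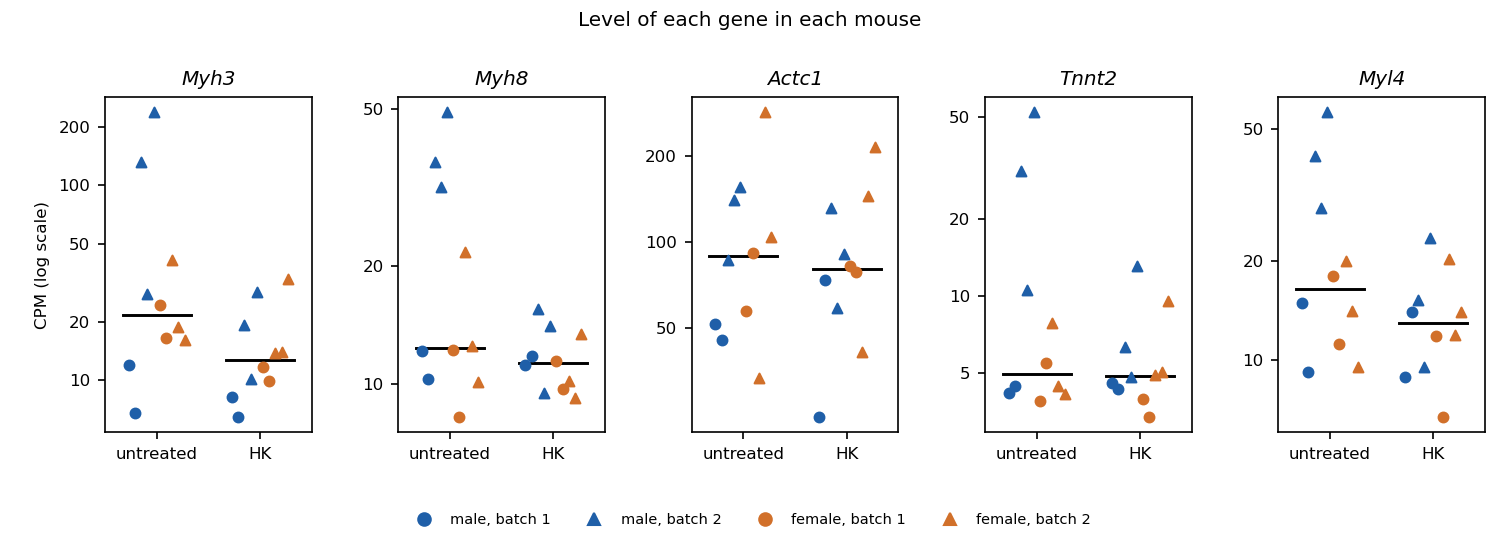
Level of each gene in each mouse in CPM on a log axis, with untreated and HK mice side by side, males in blue, females in orange, batch 1 as circles, batch 2 as triangles, and a line at each group's median. Untreated males 3 and 5 sit at the top for Myh3, Myh8, Tnnt2 and Myl4, while untreated female 4 is highest for Actc1.

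The first comparison asked how the genes differed between HK-treated and untreated mice of the same age. Myh3 had the largest difference of the 5, with a mean of 15.4 ± 8.82 CPM (SD, n = 10) in HK mice against 53.2 ± 74.1 CPM (SD, n = 10) in untreated mice. The other means were 11.6 ± 2.12 CPM against 20.5 ± 14.03 for Myh8, 6.03 ± 3.04 against 12.8 ± 16.1 for Tnnt2, 13.5 ± 5.13 against 22.3 ± 15.5 for Myl4 and 94.1 ± 56.1 against 105.0 ± 74.6 for Actc1 (SD, n = 10 each). In edgeR's quasi-likelihood fit with batch and sex as covariates, the log2 fold change of HK over untreated was -1.43 for Myh3 (standard error 0.448, unadjusted p = 0.00456). It was -0.74 for Tnnt2 (standard error 0.350, unadjusted p = 0.0473), -0.63 for Myh8 (0.218, p = 0.00891) and -0.61 for Myl4 (0.242, p = 0.0200). For Actc1 it was -0.13, less than its standard error of 0.312 (p = 0.673).

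After adjustment over the 13626 genes tested, none of the 5 passed the threshold of 0.05. The adjusted p in edgeR's quasi-likelihood test was 0.795 for Myh3, Myh8, Tnnt2 and Myl4 and 0.954 for Actc1. That test called 0 of 13626 genes (0%), with 379 higher and 456 lower in HK mice at an unadjusted p under 0.05. limma voom also called 0 genes, and DESeq2 called 6, none of them among the 5 genes. Without a filter on low counts edgeR called 502 of 30096 genes, among them Myh3, Myh8, Tnnt2 and Myl4, in a fit whose prior degrees of freedom were infinite, against 4.26 with the filter. At an unadjusted p under 0.05, 4 of the 5 were lower in HK mice, against 456 of all 13626 genes (3.35%). Myh3, Tnnt2 and Myl4 belong to the study's list of genes higher in old than in young muscle, which was drawn up with these same untreated mice, so a lower level in HK mice is not independent evidence for these 3. A bulk level also cannot tell fewer fibres that express a gene from less RNA of it per fibre.

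Without untreated males 3 and 5, the log2 fold change of Myh3 was -0.49 (standard error 0.255, p = 0.0696) and that of Tnnt2 was -0.049 (0.204, p = 0.814). Those of Myh8, Myl4 and Actc1 were then -0.38 (0.180, p = 0.0497), -0.30 (0.212, p = 0.168) and -0.091 (0.342, p = 0.793). The mean of Myh3 in the remaining 8 untreated mice was 20.4 ± 10.8 CPM (SD). Of the 5 genes 1, Myh8, was lower in HK mice at an unadjusted p under 0.05, against 205 of 13699 genes (1.5%). In edgeR's quasi-likelihood test the adjusted p was then 0.998 for each of the 5.

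The difference between groups was then taken within each batch and each sex. In batch 1, where the high males are absent, Myh3 was 6.80 to 24.3 CPM in 4 untreated mice and 6.49 to 11.7 CPM in 4 HK mice, and its log2 fold change was -0.67 (standard error 0.204). In the same batch the value was 0.041 for Myh8 (0.129), 0.067 for Actc1 (0.275), -0.15 for Tnnt2 (0.163) and -0.36 for Myl4 (0.253). Within batch 2 the log2 fold changes were -1.57 for Myh3 (0.599), -1.02 for Myh8 (0.251), -0.91 for Tnnt2 (0.488), -0.67 for Myl4 (0.320) and -0.25 for Actc1 (0.453). Every adjusted p of the 5 genes within a batch was at least 0.735 in edgeR's quasi-likelihood test. Among males of batch 2, chosen here after their values were seen, the 3 untreated mice lay above the 3 HK mice for Myh8 and Myl4, that is, for 2 of the 5 genes, and this held for 1092 of 13626 genes (8.01%).

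In males alone the log2 fold change was -1.94 for Myh3 (standard error 0.622), -1.25 for Tnnt2 (0.491), -0.97 for Myh8 (0.285), -0.90 for Myl4 (0.324) and -0.27 for Actc1 (0.293). In females alone it was -0.57 for Myh3 (0.317), -0.24 for Myh8 (0.212), -0.22 for Myl4 (0.255), 0.0093 for Tnnt2 (0.251) and 0.00032 for Actc1 (0.504). The difference between the sexes in the response was tested as an interaction, coded as males minus females. It was -1.57 for Myh3 (standard error 0.832, unadjusted p = 0.0738), -1.35 for Tnnt2 (0.646, p = 0.0499) and -0.83 for Myh8 (0.399, p = 0.0518). The adjusted p was 0.998 for all 5 genes in edgeR's quasi-likelihood test. At an unadjusted p under 0.05, 1 of the 5, Tnnt2, was more negative in males, against 227 of 13626 genes (1.67%). The interaction without untreated males 3 and 5 was 0.26 for Myh3 (standard error 0.524), -0.099 for Tnnt2 (0.421) and -0.35 for Myh8 (0.366), and so the sign turned for Myh3.

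The response was also compared between batches as an interaction, coded as batch 2 minus batch 1. For Myh8 it was -1.11 (standard error 0.376, unadjusted p = 0.00838), and for the other 4 the unadjusted p was 0.240 to 0.611. Of the 5 genes 1 was thus more negative in batch 2 at an unadjusted p under 0.05, against 199 of 13800 genes (1.44%), and the adjusted p was 0.9997 for each of the 5 in edgeR's quasi-likelihood test. Leaving out both of these untreated males (3 and 5), the interaction of Myh8 was -0.75 (0.326, unadjusted p = 0.0337), and that of Myh3 went from -1.09 to 0.38 (0.513).

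**Figure D2:**
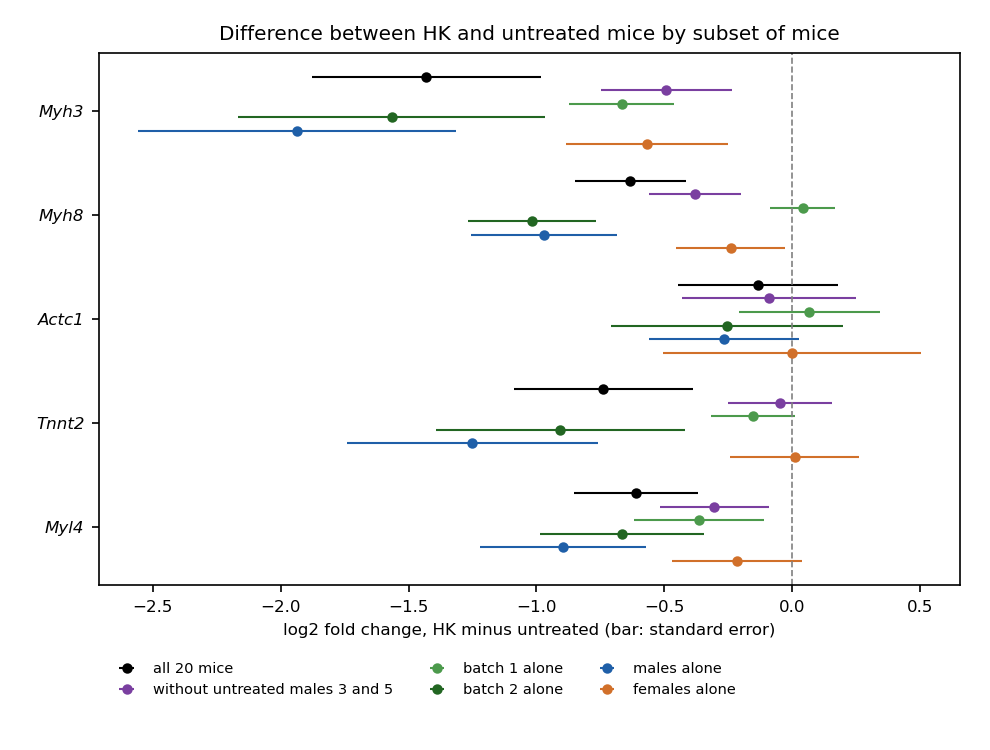
Log2 fold change of HK over untreated mice for each gene, with its standard error as a bar, in all 20 mice and in 5 subsets. Without untreated males 3 and 5 the value of Myh3 goes from -1.43 to -0.49 and that of Tnnt2 from -0.74 to -0.049, and in batch 1 alone Myh8 is at 0.041.

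The sexes were compared in the same fit. Males had higher values for 4 of the genes and lower for Actc1, and no difference passed adjustment in edgeR. Tnnt2 had a median of 5.61 CPM in 10 males and 4.69 CPM in 10 females, with the highest male at 52.2 CPM and the highest female at 9.58 CPM, and males exceeded females by 0.98 on the log2 scale (standard error 0.354, adjusted p = 0.0643, edgeR's quasi-likelihood test). Myh8 had a median of 13.1 CPM in males and 10.8 CPM in females and a log2 fold change of 0.61 (0.217, adjusted p = 0.0594, edgeR). DESeq2 and limma voom gave an adjusted p of 0.0354 and 0.0447 for Myh8, so its call depended on the tool. For Myl4 the log2 fold change was 0.52 (0.244, adjusted p = 0.156, edgeR), for Myh3 0.50 (0.459, adjusted p = 0.497, edgeR) and for Actc1 -0.46 (0.312, adjusted p = 0.345, edgeR). In edgeR's test none of the 5 was thus called higher in males after adjustment, against 1198 of 13626 genes (8.79%). At an unadjusted p under 0.05 Myh8, Tnnt2 and Myl4 were higher in males, 3 of 5 against 15.6% of all genes. In batch 1 alone, which lacks untreated males 3 and 5, the value was 0.12 for Myh8 (standard error 0.129), 0.073 for Tnnt2 (0.163) and 0.0019 for Myl4 (0.251). In batch 2 alone the values of Myh8, Tnnt2 and Myl4 were 0.85 (0.251), 1.44 (0.491) and 0.81 (0.321).

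For Myh3 the direction between the sexes turned with the mice. In batch 1 the 4 males lay between 6.49 and 11.9 CPM and the 4 females between 9.85 and 24.3 CPM, which put males over females at -0.85 on the log2 scale (standard error 0.204, adjusted p = 0.0305, edgeR's quasi-likelihood test). In batch 2 the 6 males lay between 10.2 and 237.1 CPM and the 6 females between 13.7 and 41.5 CPM, a log2 fold change of 1.19 (0.597, adjusted p = 0.245, edgeR). With all mice but untreated males 3 and 5 it was -0.36 (0.255, adjusted p = 0.376, edgeR).

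In edgeR's test all 5 genes differed between batches. Each was higher in batch 2 than in batch 1, and within each batch HK and untreated mice, and males and females, were equal in number. Myh3 had a median of 23.5 CPM in 12 mice of batch 2 against 10.8 CPM in 8 mice of batch 1, which is 1.62 on the log2 scale (standard error 0.482, adjusted p = 0.0125, edgeR's quasi-likelihood test). For Tnnt2 the medians were 7.10 and 4.27 CPM (log2 fold change 1.26, standard error 0.370, adjusted p = 0.0115, edgeR), and for Actc1 118 and 65.4 CPM (0.99, 0.328, adjusted p = 0.0226, edgeR). Myl4 had medians of 17.6 and 11.5 CPM (0.77, 0.252, adjusted p = 0.0207, edgeR) and Myh8 of 13.7 and 11.3 CPM (0.65, 0.226, adjusted p = 0.0297, edgeR). Ranges overlapped for every gene, with 8 or 9 of 12 mice of batch 2 and 1 or 2 of 8 mice of batch 1 above the median of all mice. Higher in batch 2 after adjustment were 5 of 5, against 2474 of 13626 genes (18.2%).

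Leaving out untreated males 3 and 5, the batch difference was 0.97 for Myh3, 0.74 for Tnnt2 and 0.96 for Actc1, with adjusted p of 0.00840, 0.0109 and 0.0437 in edgeR's quasi-likelihood test. For Myh8 and Myl4 it was then 0.45 and 0.53, with adjusted p of 0.0654 and 0.0647 (edgeR), and neither passed the threshold. Under limma voom Actc1 was not called either (0.82, adjusted p = 0.0660). In females alone none of the 5 passed, with values from 0.29 for Myh8 to 0.83 for Actc1 and adjusted p of 0.211 to 0.424 (edgeR). Of the marker lists, 13 of 13 macrophage genes, 9 of 9 fibroblast genes and 4 of 4 tested proliferation genes were also higher in batch 2 after adjustment, against the same 18.2%, and total counts had a median of 20950853 in batch 1 and 15766065.5 in batch 2. Their part in the difference of the 5 genes was not tested.

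The spread between mice was compared next, since on the log2 scale untreated mice ranged further than HK mice for 4 of the genes, all but Actc1. Around a fit of treatment, batch and sex, the mean absolute residual of Myh3 on the log2 scale was 0.980 in untreated and 0.494 in HK mice, a difference of -0.49 (standard error 0.225, unadjusted p = 0.0428, limma). It was 0.502 and 0.300 for Myh8 (p = 0.0635, limma), 0.700 and 0.416 for Tnnt2 (p = 0.149, limma), 0.491 and 0.385 for Myl4 (p = 0.466, limma) and 0.570 and 0.624 for Actc1 (p = 0.798, limma). The adjusted p was 0.776 for Myh3 and higher for the others. With untreated males 3 and 5 left out, the difference in spread was -0.091 for Myh3 (p = 0.471, limma), -0.0089 for Tnnt2 (p = 0.937, limma), -0.18 for Myh8 (p = 0.0627, limma), -0.049 for Myl4 and 0.017 for Actc1. When untreated male 5 alone was left out it was -0.31 for Myh3 (p = 0.137, limma), so the larger spread of Myh3 and Tnnt2 in untreated mice rested on these males. At an unadjusted p under 0.05, 1 of 5 was less spread in HK mice, against 491 of 13626 genes (3.6%). All 5 varied more between mice of a group than most genes: the biological coefficient of variation was 0.635 for Myh3, rank 108 of 13626, 0.507 for Tnnt2, 0.474 for Actc1, 0.369 for Myl4 and 0.328 for Myh8, rank 1286.

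Beside their adult counterparts the 5 genes were scarce. Shares were taken per length of the longest coding transcript, with no test. Myh3 had a median of 0.0227% of the 6 heavy chains Myh1, Myh2, Myh3, Myh4, Myh7 and Myh8 over 20 mice and at most 0.412%, in untreated male 5. Myh8 had a median of 0.0160% and at most 0.0837% of the same sum. Most of the sum was Myh4, the fast type 2B heavy chain, with a median of 9915 CPM per kb, followed by Myh1 (type 2X) at 755, Myh2 (type 2A) at 451 and Myh7 (slow type 1) at 128 CPM per kb.

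Actc1 was a median of 0.307% of the sum of Actc1 and Acta1, the adult skeletal actin, and at most 0.877%, in untreated female 4. Tnnt2 was a median of 0.0191% of the 3 troponin T genes and at most 0.204%, next to Tnnt3, the fast isoform, at 20563 and Tnnt1, the slow isoform, at 262.6 CPM per kb. Myl4 was a median of 0.209% of the essential light chains Myl1, Myl3, Myl4 and Myl6b and at most 0.774%. With the union of all annotated exons as length, which is longer than that transcript, the medians of Myl4, Tnnt2 and Myh8 were 0.0821%, 0.00436% and 0.00848%.

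In HK mice the median share of Myh3 was 0.0169% against 0.0313% in untreated mice, that of Myl4 was 0.208% against 0.256% and that of Tnnt2 was 0.0188% against 0.0226%. For Myh8 the medians were 0.0159% against 0.0167%, and for Actc1 0.307% against 0.308%. In the 8 untreated mice other than males 3 and 5 the medians were 0.0250% for Myh3, 0.205% for Myl4, 0.0183% for Tnnt2, 0.0155% for Myh8 and 0.2996% for Actc1, and of the 5 only Myh3 then had a median above that of HK mice. None of their adult isoforms passed adjustment in the comparison of HK with untreated mice (edgeR). Their log2 fold changes of HK over untreated were 0.11 for Myh4, -0.015 for Myh1, -0.22 for Myh2, -0.72 for Myh7, -0.0046 for Acta1, 0.059 for Tnnt3, -0.71 for Tnnt1, 0.017 for Myl1, -0.55 for Myl3 and -0.48 for Myl6b. The slow isoforms Myh7, Tnnt1 and Myl3 had the most negative values of these, with adjusted p = 0.795 in edgeR for each.

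**Figure D3:**
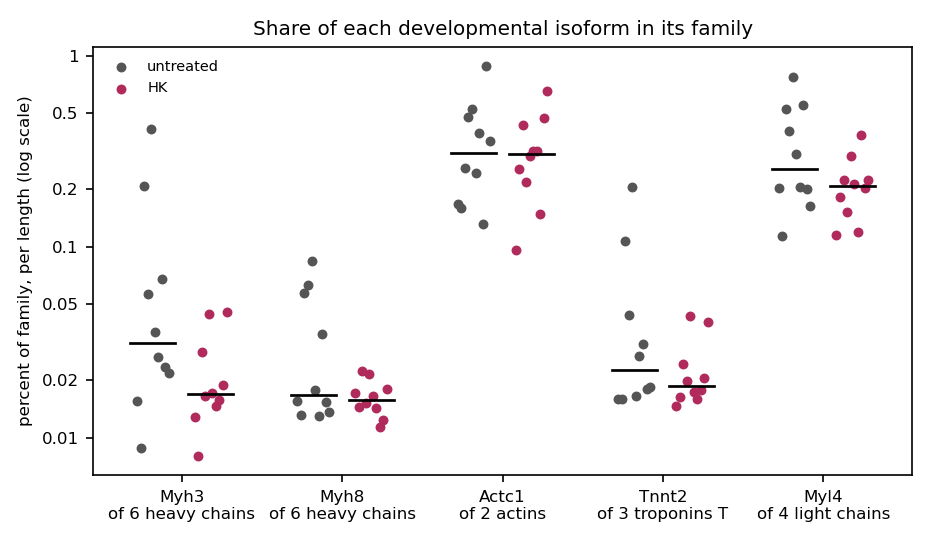
Share of each developmental isoform in its family in each mouse, in percent on a log axis, from CPM per length of the longest coding transcript, with untreated mice in grey, HK mice in red and a line at each median. Every point is below 1%, and the highest are untreated female 4 for Actc1 and untreated male 5 for Myl4, Myh3, Tnnt2 and Myh8.

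Whether the genes varied together was described with correlations of log2 CPM across the 20 mice, after treatment, batch and sex were taken out. The mice of a batch share a sequencing experiment, total counts differ between mice, and the values carry no test. Myh3 and Tnnt2 were the closest, with Pearson's r of 0.95, followed by Myh3 with Myh8 (0.83), Myh3 with Myl4 (0.80), Myh8 with Myl4 (0.79), Myh8 with Tnnt2 (0.78) and Tnnt2 with Myl4 (0.77). Actc1 had r of 0.15 with Myh3, 0.12 with Myh8, 0.19 with Tnnt2 and 0.06 with Myl4. Without untreated males 3 and 5, the 18 other mice gave 0.81 for Myh3 with Tnnt2 and 0.53 to 0.66 for the other pairs without Actc1, and -0.05 to 0.11 for Actc1 with the others.

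**Figure D4:**
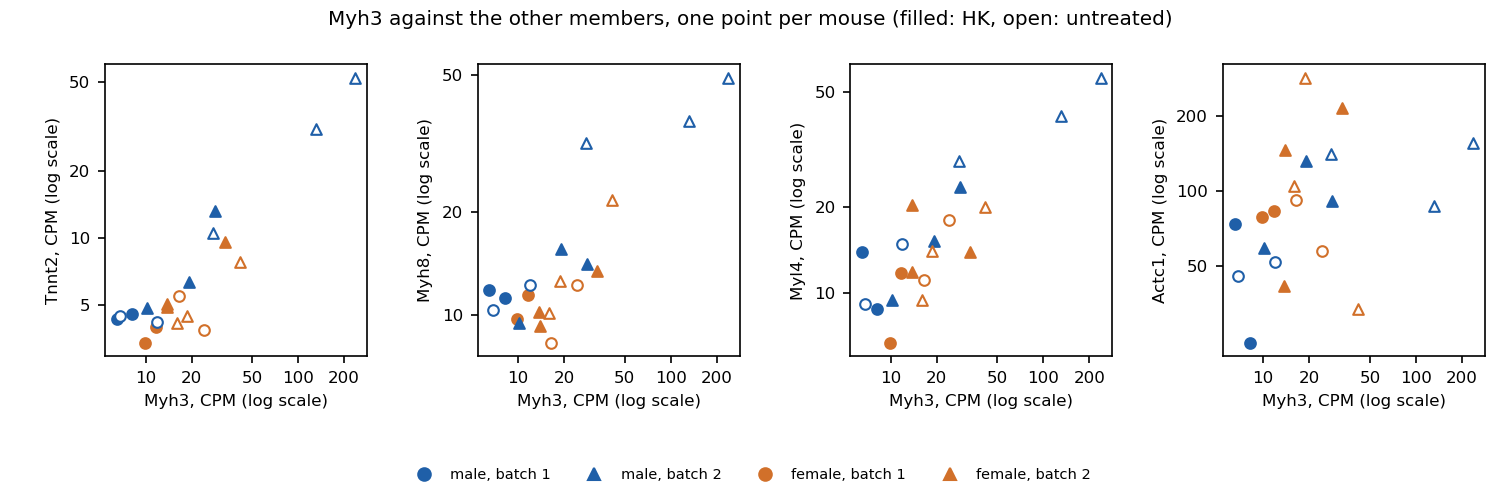
Level of Myh3 against that of each other gene, in CPM on log axes, 1 point per mouse, filled for HK and open for untreated, with colours and shapes for sex and batch as given in the picture. Tnnt2, Myh8 and Myl4 go up with Myh3 along most of its range, with r of 0.95, 0.83 and 0.80, while Actc1 shows r of 0.15.

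The genes whose pattern was most like the mean of the 5 were then picked among 13621 others, again on log2 CPM with treatment, batch and sex taken out. The 10 highest were Ppfia4 (r = 0.92), C1qtnf3 (0.92), Ncam1 (0.89), Osbpl3 (0.89), Ccdc141 (0.88), Dclk1 (0.87), Mymk (0.83), Tmsb10 (0.83), S100a13 (0.82) and Maged1 (0.82). Mymk encodes myomaker, the membrane protein that drives fusion of myoblasts, and Ncam1 is an adhesion molecule of satellite cells and of immature or denervated fibres. Tmsb10 is a thymosin that binds actin monomers, Dclk1 a doublecortin-like kinase, and Ppfia4 a liprin. The lowest were Gm26931 (r = -0.85), Slc25a44 (-0.82), a mitochondrial carrier, and Gm572 (-0.82).

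Mymk was at 23.8 CPM in untreated male 5 and 7.40 CPM in untreated male 3, against at most 6.13 CPM in the other untreated mice and 3.91 CPM in HK mice. C1qtnf3 was at 11.5 and 8.02 CPM in the same mice and at most 1.77 CPM in HK mice. Ncam1 was at 24.9 and 19.3 CPM, with a median of 9.62 CPM in untreated and 7.78 CPM in HK mice. Maged1 was at 37.3 and 40.5 CPM, with medians of 20.6 and 18.8 CPM. The likeness thus rested partly on these mice: without untreated male 5, 4 of the 10 genes stayed among the 10 highest, and by Spearman's rho in all mice 9 did. Of the 10, 9 were also higher in batch 2 after adjustment in edgeR, against 18.2% of all genes, the exception being Osbpl3. None passed the threshold between HK and untreated mice.

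Gene by gene, Myh3 was most like Tnnt2, Osbpl3 (r = 0.89) and Ncam1 (0.89), and Tnnt2 was most like Myh3, Ncam1 (0.91) and Msln (0.82), the gene of mesothelin. Myh8 was most like Exo5 (0.86), Ccdc141 (0.84) and Ncam1 (0.83), and Myl4 most like Ppfia4 (0.86), Osbpl3 (0.82) and Ptpn18 (0.81). Actc1 had a different set, Slc2a13 (0.87), Trp53bp1 (0.87) and Fat3 (0.87), none of which is among the 3 most like any of the other 4 genes.

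**Figure D5:**
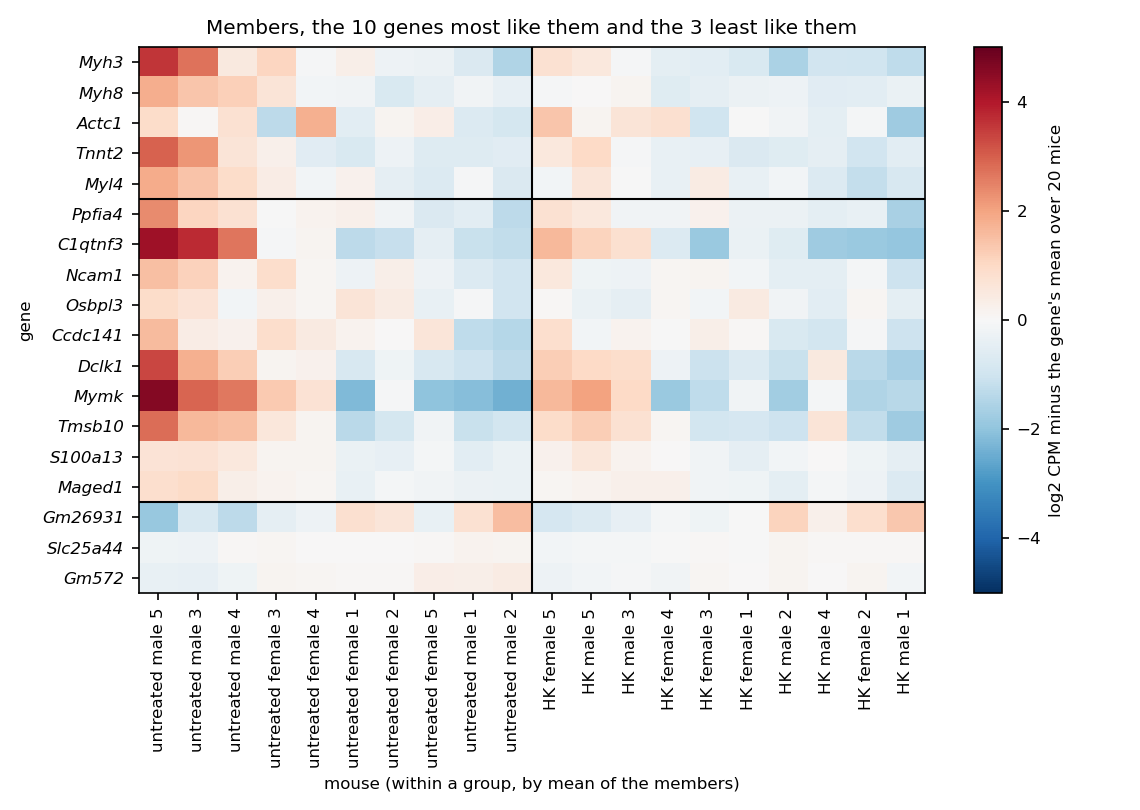
Log2 CPM of each gene minus its mean over 20 mice, for the 5 developmental genes, the 10 genes most like their mean and the 3 least like it, with untreated mice on the left and HK mice on the right, each ordered by the mean of the 5. The red columns of untreated males 5 and 3 extend from Myh3 through most of the 10 like genes, whereas the row of Actc1 has its reddest cells in untreated female 4 and HK female 5.

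Other genes of the sarcomere and of the cells around the fibre were followed as lists. In edgeR's comparison of the groups, no gene of any list passed adjustment. Over all 13626 genes the median log2 fold change was 0.0024. In the list of other developmental or specialised sarcomere genes, 10 of 15 were tested, the median was -0.16 and 5 were lower in HK mice at an unadjusted p under 0.05, namely Csrp3, Ankrd1, Casq2, Myom3 and Nrap, against 3.35% of all genes. Csrp3, a muscle LIM protein of the Z-disc, had a log2 fold change of -0.86 (standard error 0.275, p = 0.00501) and Ankrd1, a stretch-responsive ankyrin repeat protein, of -1.01 (0.335, p = 0.00689). Csrp3 ran from 33.4 to 412.8 CPM in untreated mice and from 32.5 to 108.8 CPM in HK mice, with untreated male 3 at 405.4 and untreated male 5 at 162.4 CPM. Without these males 3 of the 10 were lower, Csrp3, Ankrd1 and Casq2, against 1.5% of all genes.

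In the adult slow list, all 11 genes were tested, 11 had a negative value and the median was -0.65. Every tested gene was also negative in the macrophage (13), fibroblast (9), endothelial (7), proliferation (4) and heart (2) lists. The remaining lists held both signs. Of the slow genes 5 were lower at an unadjusted p under 0.05, namely Actn2, Myl2, Tnni1, Myl3 and Tnnc1, against the same 3.35%. The lowest p-values of the slow list were those of Actn2, a Z-disc actinin (-0.36, standard error 0.0957, p = 0.00116), and Myl2, the slow regulatory light chain (-0.65, 0.262, p = 0.0221). Without untreated males 3 and 5 the median of the slow list was -0.16 and 2 genes were lower, Actn2 and Mybpc1, against 1.5%. In the adult fast list of 12 genes the median was 0.045 and 1 was lower, Myh2 (-0.22, 0.0945, p = 0.0309), against 3.35% of all genes. The gene with the next lowest p was Tnnc2, fast troponin C (0.079, p = 0.254). The 9 skeletal muscle markers had a median of 0.059. Of them 1 was lower, Mb, myoglobin (-0.23, p = 0.0319), against 3.35% of all genes. Ckm, muscle creatine kinase (0.11, p = 0.129), was not.

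Satellite cell and differentiation genes had 15 of 16 tested and a median of -0.16. Of these, 1 was lower, Ncam1 (-0.49, standard error 0.224, p = 0.0404), against 3.35% of all genes, and Mymk had -1.26 (0.662, p = 0.0719). Of the 15, 8 were higher in batch 2 after adjustment in edgeR, against 18.2% of all genes. Denervation genes, which share Ncam1, had 15 of 15 tested and a median of -0.063. At an unadjusted p under 0.05, 2 of the 15 were lower in HK mice, against 3.35% of all genes. Higher was 1, Gadd45a, a stress-induced gene (0.34, 0.162, p = 0.0460), against 379 of 13626 genes. Chrng, the embryonic acetylcholine receptor subunit, was at 20.0 CPM in untreated male 5 and 3.61 CPM in untreated male 3, against at most 2.90 CPM in HK mice. Its median was 1.01 CPM in untreated and 1.23 CPM in HK mice (log2 fold change -0.83, standard error 0.607, p = 0.187, edgeR). Myog, the regulator of muscle differentiation, was at 37.2 and 18.3 CPM in untreated males 5 and 3 and at most 25.9 CPM in HK mice. Its medians were 13.1 CPM in untreated and 13.3 CPM in HK mice (0.061, 0.296, p = 0.840, edgeR). Gadd45a, Chrng and Myog were picked after their values were seen.

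Since Actc1, Tnnt2 and Myl4 are also heart genes, heart markers were checked. Of 12 listed, 2 were tested, Sln (-0.44, standard error 0.476, p = 0.366, edgeR) and Myh6 (-0.099, 0.300, p = 0.744, edgeR). Myl7, Gata4 and Nkx2-5 were at 0 counts in every mouse, and a count of 0 does not exclude a low level. Nppa and Nppb had at most 4 counts in a mouse, and Tnni3, cardiac troponin I, at most 8. Myh6, the atrial and adult mouse heart heavy chain, had 8 to 109 counts per mouse. Its highest level, 5.35 CPM, was in untreated male 3, and untreated male 5 had 1.47 CPM. Of the stretches of 75 bases of Myh7, the slow heavy chain, 15.3% occurred identically in Myh6. Myh7 was at 2043 CPM in untreated male 3, its highest level in untreated mice, and at 420 CPM in untreated male 5. The level of Myh6 is thus uncertain, and the part of Myh7 reads in it was not tested. Sln, sarcolipin, which skeletal muscle also uses, reached 52.8 CPM in an untreated mouse. The part of heart tissue in the levels of the 5 genes was not tested.

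Among other cell types, the macrophage list had a median of -0.29 with 0 of 13 genes past an unadjusted p of 0.05, and its lowest p-values were those of Cd163 (-0.40, p = 0.0897) and C1qc (-0.29, p = 0.139). Its summed level ran from 36.5 to 378 CPM in untreated and from 25.6 to 283 CPM in HK mice. The fibroblast and fibro-adipogenic list had a median of -0.49 with 2 of 9 lower, against 3.35% of all genes. These were Postn, the matrix protein periostin (-1.71, 0.542, p = 0.00488), and Fbn1, fibrillin (-0.63, 0.301, p = 0.0491). The summed level of the list was 292 to 2116 CPM in untreated and 205 to 1130 CPM in HK mice. Postn was at 188 CPM in untreated male 3 and 44.7 CPM in untreated male 5, with an untreated median of 6.002 CPM. Without these mice 1 of 9 fibroblast genes, Postn, was lower, against 1.5% of all genes, and the median was -0.28.

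The endothelial list had a median of -0.24 with 1 of 7 lower, against 3.35% of all genes. This was Kdr (-0.39, p = 0.0498), next to Pecam1 (-0.27, p = 0.0841). The smooth muscle list had a median of -0.16 with 0 of 7, led by Acta2 (-0.35, p = 0.0560) and Des (-0.099, p = 0.278). The adipocyte list had a median of 0.0082 with 0 of 6, led by Cfd (0.41, p = 0.176) and Fabp4 (-0.17, p = 0.188). The proliferation list had a median of -0.56 with 0 of 4 tested genes, led by Cdk1 (-0.92, 0.513, p = 0.0877) and Ccna2 (-0.55, 0.373, p = 0.158), with summed levels of 0.467 to 17.5 CPM in untreated and 0.382 to 8.69 CPM in HK mice. The highest proliferation level was that of untreated male 4, with untreated males 3 and 5 at 10.8 and 16.1 CPM. The part of these lists in the differences of the developmental genes was not tested.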

How the data were processed

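RNA from mouse gastrocnemius was depleted of ribosomal RNA and sequenced. Per the study's methods the authors aligned reads with STAR 2.6.1c to GRCm38.p6 and counted them per gene with the comprehensive GENCODE annotation; the counting tool and strand setting are not stated in the sources used here. The deposited values are raw counts per gene, 1 column per mouse, with 13900180 to 30469644 counts per mouse, whose number sets the counting error of a level.

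Genes kept by edgeR's filterByExpr for the design (13626) were normalised with trimmed mean of M values and fitted with edgeR 4.0.16 (glmQLFit, glmQLFTest) on treatment, batch and sex, with Benjamini-Hochberg adjustment over all genes and a threshold of 0.05. Interactions were added as terms. Spread was tested with limma 3.58.1 on absolute residuals of log2 CPM (prior count 2). In replicates of the same group, sex and batch, counts differed by more than the sampling error (8.06 to 49.6 for chi-square over its degrees of freedom in 16 pairs), so none was counted as a repeat. Each column is a separate mouse by its label. Samples were grouped by their treatment label. Positions and lengths come from an older GENCODE release of the same build, and promoters from RefSeq.

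The genes and lists were chosen with earlier results of these data known. Genes named beyond the 5 were their adult isoforms, the 10 most and 3 least correlated with the mean of the 5, the 3 most correlated with each, and the 2 lowest p-values of each list. Others are said to have been picked after their values were seen. A gene of the denervation list is not reported here. Heart, satellite cell, denervation and sarcomere lists share some genes.

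Tests were tried on simulated counts with these libraries' sizes. The treatment test recovered 89.7% of genes changed 2-fold and 100% changed 4-fold among 13481 genes, with 4.10% false calls. These rates are over all the changed genes together. The genes described here varied more than most, with biological coefficients of variation from percentile 90.6 (Myh8) to 99.2 (Myh3). Recovery among genes that variable was not tested separately, so the rates do not say how often a change in them would be detected. The spread test recovered 19.2% of genes whose untreated SD was raised 4-fold among 13491 genes, with 7.32% false calls, so it detects few such genes at this size. Alternatives were DESeq2 1.42.0, limma voom, robust edgeR, other size factors, filters and covariates, each batch and sex alone, and leaving out each mouse.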

Additional observations from a re-analysis of the deposited data

Results flagged for a closer look

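A closer look was given to each level or share of the 5 genes where the gap of the highest or lowest of 10 mice of a group to its neighbour was more than 0.466 of the group's range. Among 20 such sets of 10 mice there were 4 such values. A rate of about 1 in 20 by chance holds only for normally distributed values. The levels and shares are not known to be normal, and the level and share of a gene are related. No chance rate is thus given for these 4. Actc1 in untreated female 4 was at 283.9 CPM, and its share of the sarcomeric actins was 0.877%. Myh3 in untreated male 5 was 0.412% of the heavy chains, and Tnnt2 in the same mouse was 0.204% of the troponins T.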

How the results depend on the processing

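None of the 5 genes passed the threshold between HK and untreated mice under another size factor, DESeq2, limma voom, robust edgeR, no covariates, batch alone as covariate, at least 5 counts in total or without untreated males 3 and 5, nor in either batch or either sex. Without the filter on low counts 502 genes were called in place of 0, among them Myh3 (-1.42), Myh8 (-0.62), Tnnt2 (-0.73) and Myl4 (-0.60); in that fit of 30096 genes edgeR's prior degrees of freedom were infinite against 4.26, so the genes' own spread did not enter. DESeq2 called 6. The direction turned in batch 1 alone for Myh8 (0.041) and Actc1 (0.067) and in females alone for Actc1 (0.00032) and Tnnt2 (0.0093); the cause was not tested. Replicate numbers did not pair the mice (r of -0.231 to 0.223 over 10 pairs, 2 above 0.1, and no sample correlated best with its own number), and with the replicate block Myh3 was at -1.11 and 0 genes were called.

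Leaving out each mouse in turn, the treatment difference ran from -1.57 to -1.04 for Myh3, -0.72 to -0.50 for Myh8, -0.85 to -0.42 for Tnnt2, -0.71 to -0.46 for Myl4 and -0.26 to 0.057 for Actc1, which turned without untreated female 4 (0.057). Between 0 and 1 genes were called, 1 without HK female 1. At an unadjusted p under 0.05, 295 to 615 genes were then lower, 295 without untreated male 3.

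For sex, Myh8 passed under DESeq2 (0.60) and limma voom (0.65), and its value ran from 0.48 to 0.70 and that of Tnnt2 from 0.68 to 1.11 over left-out mice. Myh8 passed without untreated male 1 or 2, HK male 4 or HK female 1, and Tnnt2 without untreated male 1, HK males 3 or 4 or HK female 5. Myh3 turned in batch 1 alone (-0.85) and without untreated males 3 and 5 (-0.36). Without these males the interaction with sex turned for Myh3 (0.26), and that with batch for Myh3 (0.38), Tnnt2 (0.22) and Myl4 (0.15).

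For batch, females alone gave 0.60 for Myh3, 0.29 for Myh8, 0.83 for Actc1, 0.52 for Tnnt2 and 0.34 for Myl4, none past the threshold with 10 mice, Actc1 lost its call under limma voom (0.82), and without untreated males 3 and 5 Myh8 (0.45) and Myl4 (0.53) lost their calls. Over left-out mice the values were 0.54 to 0.76 for Myh8, 0.66 to 0.90 for Myl4 and 0.82 to 1.11 for Actc1. Myh8 lost its call without untreated male 1 or 2, untreated female 2 or HK female 5, Myl4 without untreated male 2 and Actc1 without HK male 1. The spread of Actc1 turned with residuals from treatment alone (-0.075) and ran from -0.13 to 0.20 over left-out mice, negative without HK male 1 (-0.075) or HK female 3 (-0.13). Raw counts of the 5 genes were 56 to 4955 per mouse, and depth limits their levels to that counting error, below a biological coefficient of variation of at least 0.328.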
